A study of Mus musculus with 6 samples.

Results

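ISG15 is a small ubiquitin-like protein, and the genes examined are its own and those of the enzymes that attach it to other proteins and take it off again. The 5 genes were chosen by name from the pathway and were found by matching the Ensembl identifiers of the count files to mouse symbols: Isg15 (ENSMUSG00000035692, chromosome 4), Uba7 (ENSMUSG00000032596, chromosome 9), Ube2l6 (ENSMUSG00000027078, chromosome 2), Herc6 (ENSMUSG00000029798, chromosome 6) and Usp18 (ENSMUSG00000030107, chromosome 6). They are 5 of the 21955 identifiers in the files, and all 5 were among the 11903 genes that passed the filter on low counts. The libraries are poly-A RNA of neutrophils isolated from the dura mater, the tough outermost meninx, of mice of wild-type genotype that had met a social threat. The 6 libraries fall into 3 labelled male and 3 labelled female. Strain, age and the number of animals behind a library are not given in the labels, and there is no library from unexposed mice. The comparison is between the libraries labelled male and those labelled female, all after the threat, and the Y-linked genes below bear on what these labels mean.

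ISG15 resembles a pair of ubiquitin units joined in tandem and is made in large amounts when cells sense type I interferon. Its attachment, called ISGylation, runs through a chain like that of ubiquitin: UBA7 activates ISG15, UBE2L6 carries it, and a ligase of the HERC family, HERC6 in the mouse, places it on newly made proteins. USP18 cuts ISG15 off its targets and also binds the interferon receptor, where it dampens further signalling. Interferon induces the genes of all these proteins through the factor ISGF3. Myeloid cells, neutrophils among them, respond to interferon in this way.

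Library totals ran from 17098026 to 20778410 counts, and the libraries separated by label along the first principal component, which held 39.7% of the variance. The libraries labelled female carried Y-linked transcripts at the level of those labelled male. The summed level of Ddx3y, Eif2s3y, Kdm5d and Uty was 307 to 318 CPM (counts scaled to the library total, with TMM normalization) in the libraries labelled male and 312 to 328 CPM in those labelled female, and none of the 4 passed the test by edgeR, at an unadjusted p under 0.05 either. The label female is thus at odds with these genes in each of its 3 libraries, and every direction below is a difference between libraries so labelled. The library labelled female replicate 3 stood apart from the other libraries of its label (chi-square per degree of freedom 14.1 and 17.4, against 5.33 between those). Genes of neutrophils were abundant in all libraries, with S100a9 at 15660 and 19052 CPM in the mean of the libraries labelled male and female.

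All 5 genes of the pathway were lower in the libraries labelled female. Isg15 was 3.03-fold lower, Usp18 2.10-fold and Herc6 1.93-fold, while Uba7 and Ube2l6, which encode the activating and carrier enzymes, were 1.34-fold and 1.30-fold lower. By edgeR's quasi-likelihood test with Benjamini-Hochberg adjustment over all genes, 6.62% of the 11903 genes tested were lower at an adjusted p under 0.05 and 7.29% were higher. In none of the 5 did the groups overlap, where 15% of all genes tested were lower without overlap. The 5 genes were chosen with earlier results of these data known, so their count is a description. The RNA is from isolated cells in bulk, in which fewer cells of a type and less RNA per cell cannot be told apart.

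**Figure D1:**
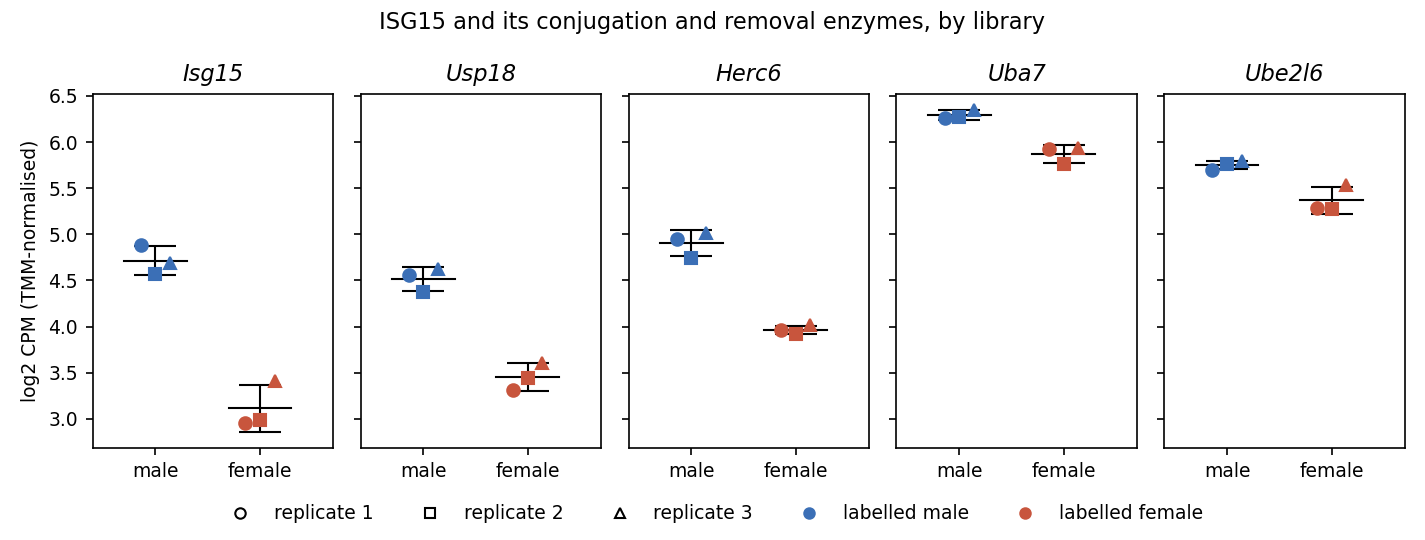
Level of each gene in each library as log2 CPM after TMM normalization, with the mean (line) and SD (bar) of the 3 libraries of each label and symbols for the replicate numbers. In every panel the 3 libraries labelled female lie below the 3 labelled male, with the widest gap for Isg15 and the narrowest for Ube2l6.

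Isg15, the modifier itself, stood at 29.4, 23.7 and 25.6 CPM in the 3 libraries with the label male and 7.62, 7.81 and 10.5 CPM in those labelled female. The highest library labelled female therefore stood well below the lowest labelled male. Its mean was 26.2 ± 2.93 against 8.65 ± 1.62 CPM (SD, n = 3), a log2 change of -1.60 (SE 0.13, adjusted p = 4.188e-08 by edgeR), and the 95% interval of the fold ran from 2.51 to 3.66. Of all genes tested, 0.218% had a change further below 0. These levels rest on 415 to 521 counts per library labelled male and 144 to 212 labelled female. The spread among the libraries labelled female (18.7% of the mean) was larger than counting error alone would give (7.66%), with replicate 3 the highest.

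The promoter of Isg15 is shown because it holds the letters of the interferon-stimulated response element, the motif that ISGF3 is known to bind, with Uba7 beside it as a gene of the same chain that changed less. The sequences are the 250 bases before the annotated start, 5′ to 3′ on the strand of the gene, from RefSeq on build GRCm38.p6, which is older than the GRCm39 of the counts. They lie at chr4:156200819-156201068 on the minus strand and chr9:107975317-107975566 on the plus strand. Capitals mark matches to the core of the element, which is GAAA, any 2 bases and GAAA again, searched on both strands.
Isg15: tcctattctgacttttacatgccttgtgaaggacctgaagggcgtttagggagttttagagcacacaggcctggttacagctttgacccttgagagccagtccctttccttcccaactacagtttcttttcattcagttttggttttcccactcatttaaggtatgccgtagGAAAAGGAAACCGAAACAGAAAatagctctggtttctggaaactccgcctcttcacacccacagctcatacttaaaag
Uba7: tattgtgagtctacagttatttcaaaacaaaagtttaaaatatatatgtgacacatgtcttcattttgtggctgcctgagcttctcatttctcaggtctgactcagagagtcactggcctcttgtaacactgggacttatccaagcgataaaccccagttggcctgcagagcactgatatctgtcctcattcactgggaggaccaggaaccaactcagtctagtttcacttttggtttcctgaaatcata
In Isg15, 3 matches overlapped in 1 run of capitals from 78 to 57 bases before the start: GAAAAGGAAA, GAAACCGAAA and GAAACAGAAA. Among windows from 250 bases before to 50 after a start, 3.44% of all 32851 in the table held a match. Of the 4 pathway genes with a window in the table, Isg15 held one, and the windows of Uba7, Ube2l6 and Herc6 did not hold these letters. Herc6, without a match, was 1.93-fold lower, so the pair shown does not stand for the whole pathway. Usp18 had no window, and the search took exact matches only. The longer form, the core followed by CT, stood in 0.271% of all windows and in 0 of the 4. Of 29 type I interferon genes with a window, 16 held the core, against 3.99% of the tested genes with one. A match is a description of letters, not of binding.

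Usp18, the protease that removes ISG15, stood at 23.4, 20.6 and 24.5 CPM in the group labelled male and 9.79, 10.8 and 12.1 CPM in those labelled female. The groups were again separate, and the means were 22.9 ± 1.98 and 10.9 ± 1.13 CPM. The log2 change was -1.07 (SE 0.12, adjusted p = 1.674e-06 by edgeR), a fold of 2.10 with a 95% interval from 1.77 to 2.48. In counts it was a gene of about the same depth as Isg15, with 362 to 415 and 185 to 243 counts per library.

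Herc6, the ligase, reached 30.8, 26.7 and 32.2 CPM where the label was male. In those labelled female it had 15.4, 15.1 and 16.0 CPM, the narrowest spread relative to the mean among the 5 genes and 2 groups. The means were 29.9 ± 2.85 and 15.5 ± 0.478 CPM, and the log2 change was -0.95 (SE 0.10, adjusted p = 1.151e-06 by edgeR; 95% interval of the fold 1.67 to 2.22). The spread of the libraries labelled female, 3.08% of the mean, was below the 5.73% that counting error gives on average.

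Uba7, the activating enzyme, was the most abundant of the 5 in CPM, with 76.5, 77.1 and 81.5 CPM in the group labelled male and 60.4, 54.0 and 60.9 CPM in those labelled female. Its mean fell from 78.4 ± 2.76 to 58.4 ± 3.86 CPM, a log2 change of -0.42 (SE 0.068, adjusted p = 2.017e-04 by edgeR; 95% interval of the fold 1.22 to 1.48). Ube2l6, the carrier enzyme, had 51.9, 54.1 and 55.4 CPM against 38.9, 38.7 and 46.4 CPM. Its mean fell from 53.8 ± 1.79 to 41.3 ± 4.39 CPM (log2 -0.38, SE 0.080, adjusted p = 2.668e-03; 95% interval of the fold 1.16 to 1.46). For both enzymes the gap between the groups was small beside that of Isg15, and for Ube2l6 the library labelled female replicate 3 came closest to those labelled male.

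In all 5 genes the highest of the libraries labelled female was replicate 3, the library that stood apart. Without it Isg15 was 3.40-fold lower, Usp18 2.22-fold, Herc6 1.96-fold, Uba7 1.37-fold and Ube2l6 1.39-fold. With any 1 of the 6 libraries left out, each of the 5 genes was still lower and past the threshold. The largest adjusted p in those fits was 0.02507, for Ube2l6, and for Uba7 it was 0.004594.

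The share of the 5 transcripts relative to one another also differed between the groups. Ratios of counts within a library do not depend on normalization. Usp18 had 0.797, 0.872 and 0.956 counts per count of Isg15 in the libraries labelled male and 1.28, 1.38 and 1.15 in those labelled female. In raw counts Usp18 was thus below Isg15 in each library labelled male and above it in each labelled female. That order does not hold per length. Per kilobase of the longest annotated transcript Usp18 was below Isg15 in both groups. The means were 12.9 against 34.7 CPM per kilobase for the label male and 6.14 against 11.4 for the label female. Herc6 per Isg15 went from 1.14 ± 0.106 to 1.83 ± 0.267 and Uba7 per Isg15 from 3.01 ± 0.361 to 6.88 ± 1.07. Ube2l6 per Isg15 went from 2.07 ± 0.273 to 4.82 ± 0.364. In all 4 ratios to Isg15 the groups did not overlap. The ratio of Ube2l6 to Uba7 was 0.686 ± 0.013 and 0.707 ± 0.0594, with overlapping groups. That of Herc6 to Usp18 was 1.31 ± 0.012 and 1.43 ± 0.129. Its groups were barely apart, at 1.314 in the highest library labelled male and 1.329 in the lowest labelled female. Counting error of Usp18 alone, 5.03% and 6.84% of the mean for the labels male and female, was larger than this gap. These ratios are given without a test, since the genes were not chosen independently of the data.

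**Figure D2:**
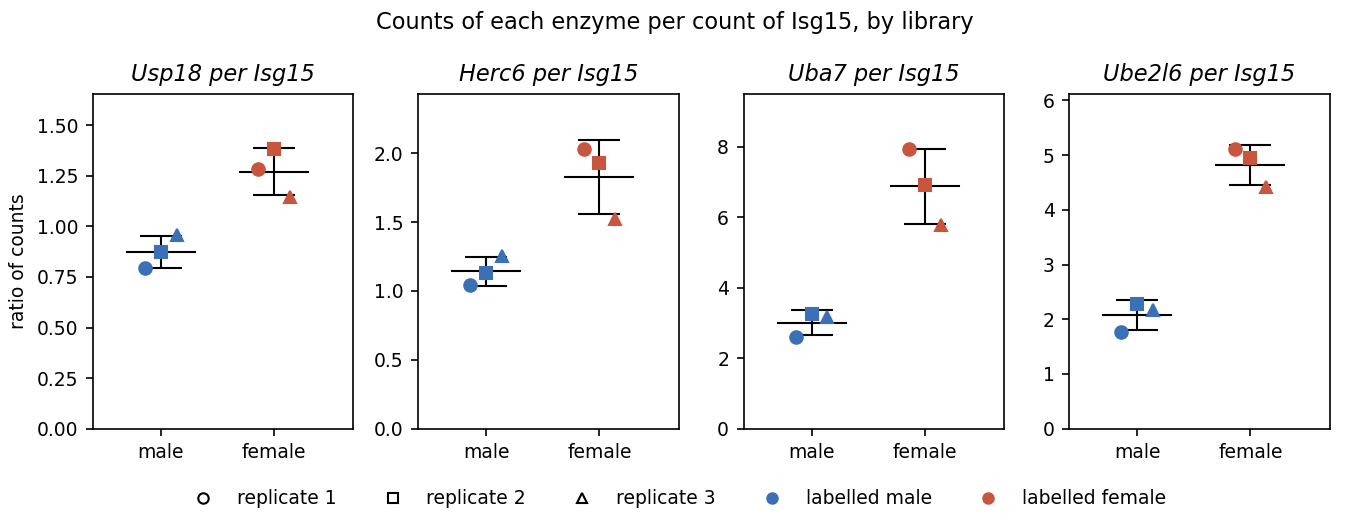
Counts of Usp18, Herc6, Uba7 and Ube2l6 per count of Isg15 in each library, with the mean (line) and SD (bar) of each label. The axes start at 0 and differ between panels. All 3 libraries labelled female lie above the 3 labelled male in each panel, and the ratio of Ube2l6 to Isg15 is 2.33-fold higher in the mean.

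Levels can be compared between genes only per length of transcript. Per kilobase of the longest annotated transcript, the libraries labelled male had 34.7 ± 3.87 CPM per kilobase of Isg15 and 34.5 ± 1.15 of Ube2l6, which did not differ beyond their spread. Below them came Uba7 at 21.7 ± 0.763, Usp18 at 12.9 ± 1.12 and Herc6 at 6.27 ± 0.597 CPM per kilobase. In the libraries labelled female Ube2l6 was highest at 26.5 ± 2.81, followed by Uba7 at 16.1 ± 1.07, Isg15 at 11.4 ± 2.14, Usp18 at 6.14 ± 0.641 and Herc6 at 3.25 ± 0.1. Isg15 thus stood level with the first of the 5 in one group and was the third in the other. Lengths came from GENCODE M21 on the older build, and the order rests on them in part. With all annotated exons joined, Uba7 in the libraries labelled female had 8.73 CPM per kilobase, below Isg15, and in those labelled male Ube2l6 had 26.9 CPM per kilobase, also below Isg15.

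Over the 6 libraries the 5 genes fell into patterns of different depth. After each gene's log2 CPM was centred on its mean, Uba7 and Ube2l6 differed by a root mean square of 0.0751 and Usp18 and Herc6 by 0.0975. Isg15 was 0.288 from Usp18, its nearest, and 0.621 from Ube2l6, its farthest. Among 10555 other genes with a mean of at least 1 log2 CPM, the profiles nearest to the mean of the 5 were those of Xaf1 (0.0348), Psd (0.057), Stat2 (0.0727), Slco4a1 (0.0826) and Pml (0.0875). Xaf1, Stat2 and Pml are genes induced by interferon, Psd encodes an exchange factor for small GTPases, and Slco4a1 encodes an organic anion transporter. All 5 were lower in the libraries labelled female, between 1.69-fold (Pml) and 1.87-fold (Xaf1). They were picked by their profile over these same libraries, so this direction follows from the choice and their p-values are no support for it. Likeness over 6 libraries in 2 groups rests mostly on the difference between the groups.

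**Figure D3:**
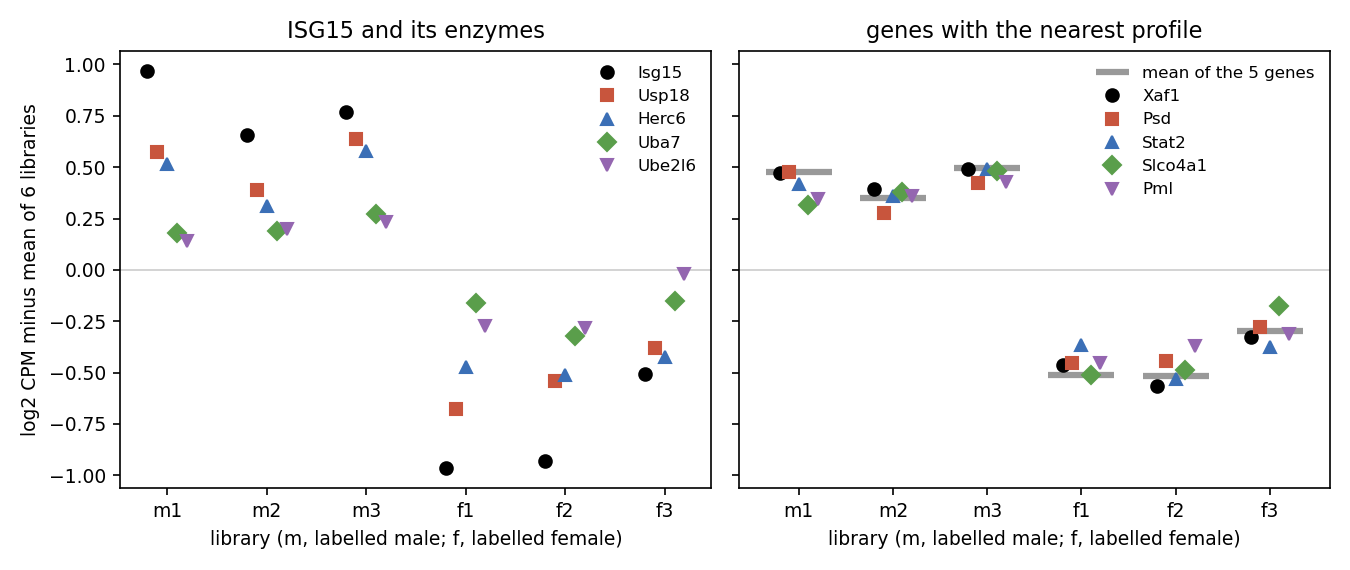
Log2 CPM in each library minus the gene's mean over the 6 libraries, for the 5 pathway genes (left) and for the 5 genes nearest to their mean profile (right, with grey lines for that mean). Points of 1 library are spread sideways. On the left Isg15 lies farthest from 0 in each library, and the values of Uba7 and Ube2l6 lie nearest to 0.

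The enzymes that serve ISG15 beside other modifiers are set beside all genes tested, of which 6.62% were lower and 7.29% higher, and with so few members their counts do not set them apart. Of 10 further ligases, carriers and proteases with reported activity on ISG15, 9 were tested, 1 was lower and none was higher by edgeR (1 at an unadjusted p under 0.05, none by DESeq2). The one that fell was Trim25, a ligase for ISG15 and ubiquitin that also acts in RNA sensing, from 137 ± 12.0 to 115 ± 1.51 CPM (log2 -0.25, SE 0.066, adjusted p = 0.01369). Without male replicate 2 or 3 its adjusted p was 0.07193 and 0.1295. Trim25 also stands in the list of type I interferon genes below. Arih1, another ligase, had a log2 change of 0.13 (adjusted p = 0.1853, and 0.01078 without female replicate 3), and the protease Usp5 had -0.10 (adjusted p = 0.2842). Usp14, named after its values were seen, had 0.21 (adjusted p = 0.05653), and without female replicate 3 it was higher too (adjusted p = 0.001215), so that 2 of the 9 were higher there. The median log2 change of the 9 was -0.07, beside 0.00 for all genes. Usp13 had no count in any library, which allows up to 3 counts, or 0.144 to 0.175 CPM, per library.

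For the relatives of the enzymes too, the shares of all genes tested (6.62% lower and 7.29% higher) leave the counts unremarkable. Of the 5 close paralogs, Ube2l3 of Ube2l6 and Herc1 to Herc4 of Herc6, none passed the test by edgeR, by DESeq2 or at an unadjusted p under 0.05. Their log2 changes ran from -0.20 for Herc3 to 0.09 for Ube2l3, and Herc4, the most abundant, was at 0.09. Of 8 other activating enzymes, Atg7, which serves the modifiers of autophagy, was higher at 69.2 ± 1.02 against 58.0 ± 3.28 CPM (log2 0.26, SE 0.067, adjusted p = 0.01292). Without male replicate 2 or 3 its adjusted p was 0.0744 and 0.08413, and without female replicate 3 the number higher was 2. None of the 8 was lower by edgeR, by DESeq2 or at an unadjusted p under 0.05. Uba1, the main activating enzyme of ubiquitin, had 247 ± 4.66 and 250 ± 10.8 CPM (log2 0.02).

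Ubiquitin and the other modifiers stood on both sides. Of 13 tested, 1 fell and 1 rose by edgeR, near the shares of all genes tested (6.62% lower and 7.29% higher). The one that rose was Sumo2 (log2 0.21, SE 0.063, adjusted p = 0.02827). The call of Sumo2 was lost without any single library but female replicate 3, with adjusted p from 0.07056 to 0.1399. Ubb, a gene of ubiquitin and the most abundant modifier gene in CPM, had 919 ± 51.8 and 802 ± 71.1 CPM (log2 -0.20, adjusted p = 0.05133). It passed in all 8 alternatives that kept the 6 libraries and the threshold (adjusted p from 0.01755 to 0.04732). Without female replicate 3, 3 modifiers were lower and 2 higher. The median log2 change of the 13 was -0.04.

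Several partners and substrates fell with the pathway. Of 8 genes whose proteins bind ISG15 or USP18, 2 fell and 1 rose, where 6.62% of all genes tested were lower and 7.29% higher. Stat2, which holds USP18 at the receptor, fell from 114 ± 5.20 to 63.4 ± 4.05 CPM (1.80-fold, adjusted p = 2.512e-08). Rnf213, a giant ubiquitin ligase that binds ISG15, fell from 261 ± 7.37 to 148 ± 16.5 CPM (1.76-fold, adjusted p = 6.494e-08). Itgb2, a chain of the integrin LFA-1 through which free ISG15 signals, rose 1.16-fold (adjusted p = 0.01921), with adjusted p from 0.07906 to 0.09791 when male replicate 1, 2 or 3 was left out. Its partner chain Itgal had a log2 change of 0.09 (adjusted p = 0.3589). Of 12 genes of reported ISG15 substrates, 6 fell by edgeR and 8 were lower at an unadjusted p under 0.05. None rose by edgeR, by DESeq2 or at an unadjusted p under 0.05. All 6 were among the 7 that also stand in the list of interferon genes, and of the other 5 none fell by edgeR. Ifit3 fell 3.62-fold, Ifit1 3.01-fold, Mx1 2.78-fold and Ifih1 1.62-fold, while Pcna, a substrate of DNA replication and the most abundant, had 329 CPM in both means (log2 0.00, adjusted p = 0.9847). Ifit3 has a near-identical copy, Ifit3b, and its value is uncertain, since the handling of shared reads is not known.

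**Figure D4:**
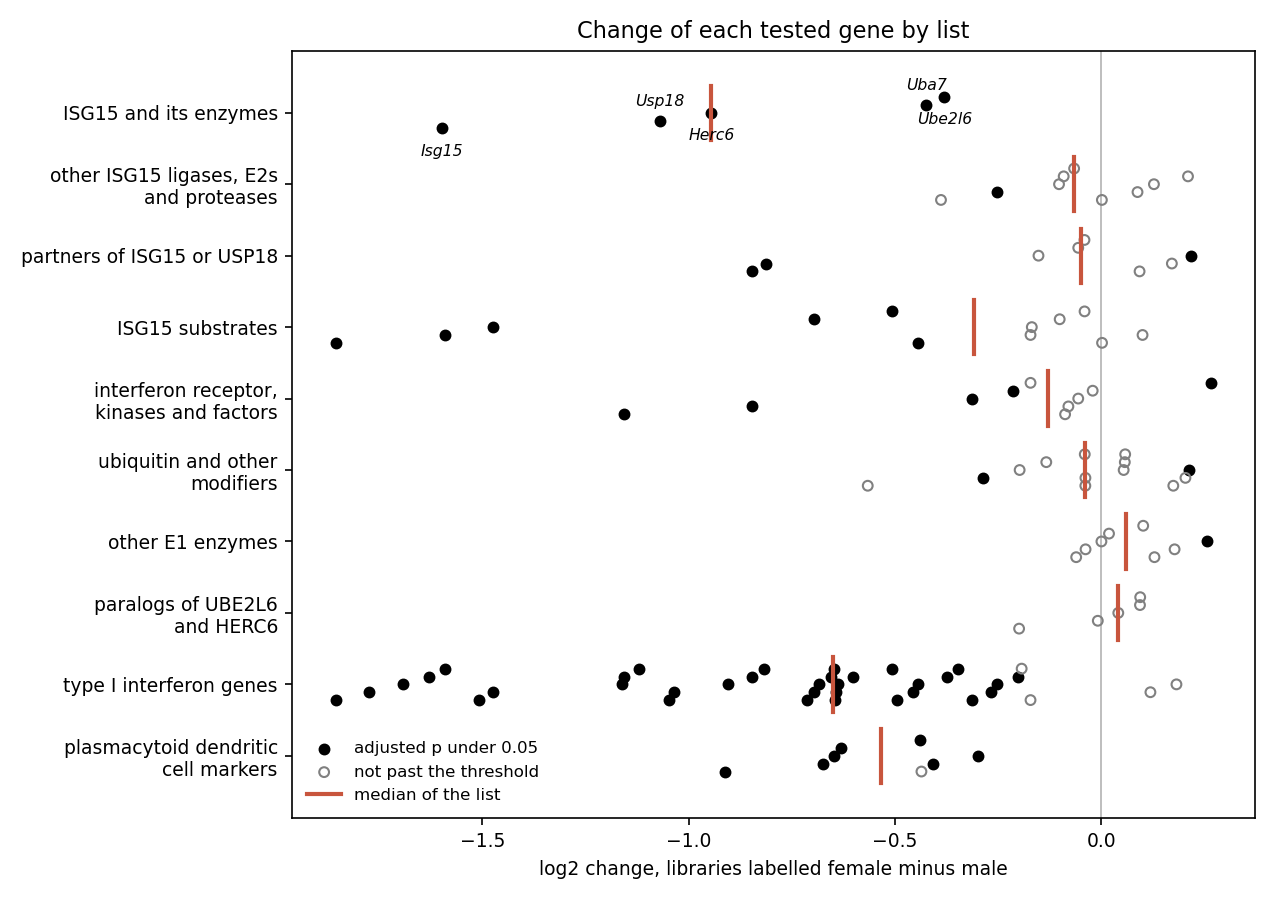
Log2 change of each tested gene (libraries labelled female minus male) by list, with filled points for an adjusted p under 0.05 by edgeR, open points for the others and a line at each list's median. The 5 pathway genes lie between -1.60 and -0.38, and the other activating enzymes and the paralogs lie near 0.

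Upstream of the pathway, the receptor subunits did not pass the test, and genes of the factors Irf7, Stat2 and Irf9 fell. Ifnar1 and Ifnar2, the subunits of the type I interferon receptor, had log2 changes of -0.08 and -0.06 (adjusted p = 0.4555 and 0.6205). Of the 10 genes of receptor, kinases and factors, 4 fell and 1 rose, where 6.62% of all genes tested were lower and 7.29% higher. Irf7, a factor that amplifies interferon production, fell from 138 ± 7.04 to 61.7 ± 6.48 CPM (2.23-fold, adjusted p = 1.161e-09). Stat2 fell as above and Irf9 fell 1.24-fold (adjusted p = 0.004742). The kinase gene Tyk2 fell 1.16-fold and Jak1 rose 1.20-fold. Tyk2 missed the threshold when male replicate 1, 2 or 3 or female replicate 2 was left out (adjusted p = 0.06612, 0.07262, 0.1097 and 0.1033), and Jak1 lost its call without male replicate 1 (adjusted p = 0.07228), as did Irf9 (adjusted p = 0.05098). Irf2 was at -0.02 (adjusted p = 0.8633). Without male replicate 1, 2 of the 10 genes were lower.

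Among 38 type I interferon genes, Isg15 stood near the lower end of the changes and Uba7 and Ube2l6 in the upper part. By edgeR 6.62% of all genes tested were lower and 7.29% higher. Of the 38, 34 were lower and none was higher by edgeR or DESeq2 (1 at an unadjusted p under 0.05), with a median log2 change of -0.65. Only 4 of them had a change further below 0 than Isg15, 10 further than Usp18 and 12 further than Herc6, whereas 28 had one further below 0 than Uba7 and also 28 than Ube2l6. The abundant antiviral gene Samd9l had a log2 change of 0.18 and did not pass (adjusted p = 0.1506, and 0.006303 without female replicate 3).

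Several markers of dendritic cells and B cells were lower, as the 5 genes were, while several of red cells and neutrophils were higher. Most of those of monocytes, T and NK cells, platelets and stroma did not pass the test. Of all genes tested, 6.62% were lower and 7.29% higher by edgeR, and 1 or 2 calls in a direction do not set such short lists apart. Plasmacytoid dendritic cells are a main source of type I interferon and express interferon-induced genes. Of 8 of their markers, 7 fell, with a median log2 change of -0.53 and a summed level of 879 to 886 CPM in the libraries labelled male and 645 to 664 CPM in those labelled female. Siglech, a defining receptor of these cells, fell 1.55-fold from 142 ± 5.93 to 91.8 ± 5.90 CPM, and Ccr9 fell 1.60-fold. Bst2 stands in this list and among the interferon genes. Of 10 markers of conventional dendritic cells 5 fell (summed level 561 to 593 and 548 to 580 CPM), with Ccr7 2.06-fold lower. Most of that sum was Sirpa, at 363 and 400 CPM in the means, which did not pass (log2 0.14, adjusted p = 0.1113 by edgeR). The median log2 change of the 10 was -0.46, and 9 were below 0. Of 9 B cell markers 7 fell (274 to 336 and 164 to 228 CPM), among them Cd22 (1.74-fold). No marker of these 3 lists was at 0. Of 7 erythroid markers 4 were higher and none lower by edgeR (none at an unadjusted p under 0.05 either), with a median log2 change of 1.32 and a summed level of 19.5 to 24.7 and 36.2 to 66.0 CPM. Without female replicate 3, 6 of the 7 erythroid markers were higher, and without male replicate 2 or female replicate 2 the number was 3. Of 11 monocyte and macrophage markers Ccr2 (log2 0.52) and Adgre1 were higher and Cd68 was lower, with a summed level of 2261 to 2330 and 2479 to 2531 CPM. Adgre1 lost its call without male replicate 2 or 3 or female replicate 1 or 2 (adjusted p from 0.08294 to 0.1767). Of 10 T and NK cell markers only Cd4 was lower (log2 -0.55, adjusted p = 0.01122 by edgeR), and not without male replicate 2. None of 5 platelet and 5 tested fibroblast and endothelial markers passed by edgeR or DESeq2 (0 and 3 at an unadjusted p under 0.05). Mitochondrially encoded genes took 10.7% to 13.1% of counts in the libraries labelled male and 6.42% to 8.49% in those labelled female, and 8 of 12 were lower. Of 13 neutrophil markers 8 were higher and Mpo was lower. Retnlg, Mmp8, Mmp9, Ly6g and Csf3r rose most, with log2 changes from 0.49 for Csf3r to 1.25 for Retnlg. Mmp8 had 0.96, and the adjusted p of Retnlg was 7.225e-10 by edgeR. These 5 kept their calls with any 1 library left out. Without male replicate 1, 2 or 3 only these 5 were higher, as S100a8, S100a9 and Lcn2 lost their calls (adjusted p from 0.07641 to 0.1879). Mpo lost its call without any single library but female replicate 3 (adjusted p from 0.06063 to 0.144). The part of these cells and of RNA quality in the levels of the 5 genes was not tested. When the counts of mitochondrially encoded genes were removed first, all 5 were still lower and past the threshold, Isg15 with a log2 change of -1.61.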

How the data were processed

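Poly-A RNA of 6 libraries of dural neutrophils was sequenced on an Illumina NovaSeq, per the labels' protocols. Per the submitters' processing notes, cutadapt 1.15, HISAT2 2.0.5 and the build GRCm39 were used, with no role or order stated. The authors deposited raw counts per gene, with no normalization. The sources used here do not give the counting tool, or how it treated strand and shared reads.

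Symbols and lengths came from GENCODE M21 on an older build, which named 21847 of 21955 identifiers, and 210 of 212 list entries matched (Rigi as Ddx58). The test was that of edgeR 4.0.16 under R 4.3.3 (filterByExpr with a minimum count of 10, TMM, quasi-likelihood test, group as the only term, Benjamini-Hochberg adjustment over all genes, threshold 0.05). Log2 CPM used a prior count of 2. Each SE came from the change and its F statistic, and intervals used edgeR's moderated degrees of freedom. Adjusted p-values beside a named alternative come from the fit of that alternative. The code was tested on simulated counts.

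The labels name no animals, so the p-values cover only the spread among these libraries, and that spread may be technical. Pairs within a label differed by more than sampling noise. The 5 genes, the lists and the rule for named genes were chosen with earlier results of these data known. The rule took the 5 genes, up to 4 called genes and the most abundant uncalled gene of each pathway list, the 5 nearest profiles, and leading cell markers, of which the text gives a part. The receptor subunits, Usp14, Usp13, Herc3, Ube2l3 and Tyk2 fall outside it and were named after their values were seen. Some genes of the lists are counted but not reported here by name.

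The alternatives tried were edgeR with size factors of DESeq2 or upper-quartile scaling, the test of DESeq2 1.42.0, voom of limma 3.58.1, other filters, a stricter threshold, the replicate number as a block, each library left out, no mitochondrially encoded genes, another transcript length and a longer motif.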

Additional observations from a re-analysis of the deposited data

How the results depend on the processing

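The 5 pathway genes kept their direction and stayed past the threshold in all 9 alternatives that kept the 6 libraries. These were other scalings, tools and filters, no mitochondrially encoded genes, the replicate block and the threshold of 0.01 on the main fit. The same held in all 6 fits without 1 library. The log2 change of Isg15 ran from -1.61 to -1.59 over the former and from -1.76 to -1.51 over the latter, and that of Ube2l6 from -0.39 to -0.37 and from -0.47 to -0.33. All 5 genes were lower without overlap under each of the 3 scalings.

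Over all genes, the number lower was 467 to 1269 and the number higher 439 to 1439 without 1 library, and at an adjusted p under 0.01 there were 410 lower and 410 higher. At that threshold, the counts of lower further ISG15 enzymes and of higher partners, modifiers and other activating enzymes were 0. Without a filter, 1 further enzyme, 2 modifiers and 1 interferon gene were higher. Lower modifiers numbered 2, not 1, with DESeq2 size factors, upper-quartile factors, no mitochondrially encoded genes, DESeq2, limma-voom, either other filter or the block, with Ubb among them. The cause of these shifts was not tested.

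Without 1 library, lower further enzymes numbered 0 to 1 and higher ones 0 to 2, higher partners 0 to 1, lower receptor and factor genes 2 to 6 and higher ones 0 to 1, lower modifiers 0 to 3 and higher ones 0 to 2, higher activating enzymes 0 to 2, and higher interferon genes 0 to 1.

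With the replicate number as a block, 914 genes were lower, 1007 higher and 1 further ISG15 enzyme higher (Usp14). The labels do not say that a replicate number marks a shared animal, litter or day, so the numbers were not taken as pairs. Deviations of same-numbered libraries correlated at -0.039, 0.065 and 0.063, which with 3 libraries per label cannot settle whether they are pairs. With exons joined as the length, levels per kilobase of the 4 enzymes moved beyond their SD. For Isg15, with 144 to 212 counts per library labelled female, counting error was below the spread between those libraries.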
